A study of Homo sapiens with 6 samples.

Results

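FAS and ACTA2 are neighbouring human genes on chromosome 10. All probe sets that the array's annotation assigns to exactly FAS or exactly ACTA2 were taken, which gave 5 for FAS and 3 for ACTA2, 8 of 54675 in all; 6 of the 8 passed the filter on dim values. Both genes were chosen by their intensity in the knockdown arrays against the control arrays, already known to be lower, so their differences from the control hairpin are given as a description and carry no test. The arrays came from VCaP, an established human prostate cancer cell line carrying a TMPRSS2-ERG fusion. All cells expressed a short hairpin RNA (shRNA) and had doxycycline at 100 ng/ml for 3 days, the control included. The 3 groups of 2 arrays each carried PRMT5 shRNA 1, PRMT5 shRNA 2 or NTC shRNA, the control hairpin. PRMT5 is an arginine methyltransferase. No label tells if arrays of a group came from separate cultures. The p-values therefore rest on the spread between arrays, and that spread may be technical.

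FAS encodes a death receptor of the tumour necrosis factor receptor family. When Fas ligand binds it, the adaptor FADD and the initiator caspases 8 and 10 gather at its cytoplasmic tail, CFLAR competes with them, and the cell can enter apoptosis. Prostate epithelium expresses FAS, and the gene is a known target of p53 and of interferon signalling. ACTA2 encodes the alpha actin of smooth muscle, the filament protein that marks smooth muscle cells, pericytes and activated fibroblasts. Its transcription is known to depend on serum response factor (SRF), which binds CArG boxes, and on the SRF partners myocardin and MRTF.

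In RefSeq the genes lie on opposite strands with no protein-coding gene starting between them, and their annotated spans overlap. RefSeq's promoter windows (GRCh38.p14), each with 250 bases before an annotated start and 50 from it, gave 2 starts for ACTA2 and 3 for FAS. The outer ACTA2 start (chr10:88991288-88991587, minus strand) and the inner FAS start (chr10:88991181-88991480, plus strand) are 94 bases apart, and their windows share 193 bases. The next pair of sequences is shown because this is where the neighbours meet, with the shared stretch in capitals; each capital stretch is the reverse complement of the other.
ACTA2 outer start: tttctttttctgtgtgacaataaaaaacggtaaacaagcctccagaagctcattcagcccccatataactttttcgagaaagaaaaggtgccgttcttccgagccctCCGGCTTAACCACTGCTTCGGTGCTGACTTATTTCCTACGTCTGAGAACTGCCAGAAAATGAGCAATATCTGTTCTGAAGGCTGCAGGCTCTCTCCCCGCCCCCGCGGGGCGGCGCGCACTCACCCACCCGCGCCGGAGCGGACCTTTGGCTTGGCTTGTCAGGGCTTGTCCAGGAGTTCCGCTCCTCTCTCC
FAS inner start: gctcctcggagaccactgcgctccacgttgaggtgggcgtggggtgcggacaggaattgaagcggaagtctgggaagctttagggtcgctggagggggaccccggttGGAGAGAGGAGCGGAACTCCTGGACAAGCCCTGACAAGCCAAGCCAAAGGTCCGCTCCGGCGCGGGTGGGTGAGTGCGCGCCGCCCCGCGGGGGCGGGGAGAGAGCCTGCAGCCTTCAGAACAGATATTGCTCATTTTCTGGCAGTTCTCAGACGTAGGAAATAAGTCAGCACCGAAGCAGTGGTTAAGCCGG

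The inner ACTA2 start (chr10:88952724-88953023, minus strand) lies 38564 bases further into the gene. It is shown because its window holds motifs that the other windows lack. The middle FAS start (chr10:88990664-88990963, plus strand) lies 517 bases before the inner FAS start and is shown for comparison. Capitals mark TATATAA and both near-CArG boxes in the ACTA2 sequence, and GGGCGG in the FAS sequence.
ACTA2 inner start: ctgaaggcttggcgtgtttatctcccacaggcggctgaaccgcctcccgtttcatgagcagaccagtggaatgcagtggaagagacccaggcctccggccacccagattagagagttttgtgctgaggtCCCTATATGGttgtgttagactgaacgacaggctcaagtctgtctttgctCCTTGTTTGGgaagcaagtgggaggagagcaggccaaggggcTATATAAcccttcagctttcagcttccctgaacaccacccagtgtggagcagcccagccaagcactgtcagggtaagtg
FAS middle start: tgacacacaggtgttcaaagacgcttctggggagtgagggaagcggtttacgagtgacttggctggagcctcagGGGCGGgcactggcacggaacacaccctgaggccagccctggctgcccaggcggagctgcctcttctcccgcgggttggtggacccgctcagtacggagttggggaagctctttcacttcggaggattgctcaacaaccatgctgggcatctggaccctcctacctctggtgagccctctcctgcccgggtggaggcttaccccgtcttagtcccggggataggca

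Motifs were searched on both strands of these windows and of all 35116 RefSeq windows of the same length. The inner ACTA2 window held TATATAA, found in 2.57% of all windows, starting 29 bases before the start. No window of either gene held an exact CArG box, found in 1.29% of all windows. The inner ACTA2 window held 2 sites that differ from it in 1 inner letter, starting 121 and 71 bases before the start; 6.94% of all windows hold such a site, and the other 4 windows of this pair of genes held none. GGGCGG, in 45% of all windows, occurred at 2 places in the windows of the outer ACTA2 and inner FAS starts, within the stretch they share. A match of letters is a description and not evidence of binding. The array values do not show which start a transcript came from.

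The targeted gene, PRMT5, checks the labels. On its brightest probe set the intensity was 136 and 134 with PRMT5 shRNA 1 and 291 and 321 with PRMT5 shRNA 2, against 810 and 880.5 with NTC shRNA. The signal left was 15.9% of the control mean with PRMT5 shRNA 1 and 36.2% with PRMT5 shRNA 2. Across the tested genes, arrays of 1 group correlated at 0.996 to 0.997 and arrays of different groups at 0.976 to 0.991. The ACTB 3' to 5' signal ratio, a sign of RNA quality, was 3.49 to 3.88 with PRMT5 shRNA 1, 5 to 5.72 with PRMT5 shRNA 2 and 4.58 to 4.88 with NTC shRNA. The same ratio for GAPDH differed less, at 1.21 to 1.23, 1.22 to 1.23 and 1.26 to 1.33. The part of RNA quality in the results was not tested.

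FAS signal was lower with both hairpins on every one of its 5 probe sets. The brightest, 204780_s_at, read 545 and 487 with PRMT5 shRNA 1 and 656 and 691 with PRMT5 shRNA 2, against 1172.5 and 1192 with NTC shRNA. The 3 groups did not overlap, with PRMT5 shRNA 1 lowest. The signal was 43.6% of the control mean with PRMT5 shRNA 1 and 57% with PRMT5 shRNA 2. On the log2(intensity + 16) scale the differences from NTC shRNA were -1.17 ± 0.07 and -0.80 ± 0.07 (SE, n = 2 arrays a group).

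The other FAS probe sets kept that order. Probe set 204781_s_at read 350.7 and 382.5 with PRMT5 shRNA 1 and 514 and 530 with PRMT5 shRNA 2, against 968 and 908 with NTC shRNA. Probe set 215719_x_at read 409 and 381 with PRMT5 shRNA 1, 468 and 468.5 with PRMT5 shRNA 2, and 936 and 903 with NTC shRNA. Probe set 216252_x_at read 379 and 362 with PRMT5 shRNA 1, 434 and 443 with PRMT5 shRNA 2, and 878 and 855 with NTC shRNA. Where these probe sets lie along the FAS transcript was not examined here, and as they read 1 gene on the same arrays they are not independent of each other.

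The dimmest FAS probe set, 233820_at, read 76.7 and 58.2 with PRMT5 shRNA 1 and 89.9 and 93.4 with PRMT5 shRNA 2, against 192 and 173 with NTC shRNA. It is the only FAS probe set that is neither an _s_at nor an _x_at type, the types whose probes can match more than 1 transcript or sequence. Over all 5 probe sets the signal left was 36.9% to 43.6% of control with PRMT5 shRNA 1 and 50.2% to 57% with PRMT5 shRNA 2. All 4 knockdown arrays lay below both control arrays for 5 of 5 probe sets; the same held for 19.7% of the 28644 probe sets above the filter on dim values. Both PRMT5 shRNA 1 arrays also lay below both PRMT5 shRNA 2 arrays for 5 of 5, as for 32.9% of the kept probe sets, and that full order of the 3 groups was seen for 8.84% of the same probe sets.

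ACTA2 was measured above the filter by 1 of its 3 probe sets. Probe set 200974_at read 22.9 and 19.8 with PRMT5 shRNA 1 and 52.1 and 49 with PRMT5 shRNA 2, against 129 and 141 with NTC shRNA. The groups again did not overlap and stood in the same order as for FAS. Over the genes tested, 20.5% had all 4 knockdown arrays below both control arrays and 10.5% had that full order. The signal was 15.8% of the control mean with PRMT5 shRNA 1 and 37.5% with PRMT5 shRNA 2, and the differences from NTC shRNA were -2.02 ± 0.10 and -1.18 ± 0.10 (SE) on the log2(intensity + 16) scale.

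The PRMT5 shRNA 1 values of ACTA2 lay just above the array medians of 14.8 to 16.5, so the size of that difference depends on the pseudocount. With pseudocounts of 1 and 64 it was -2.61 and -1.22. The remaining ACTA2 probe sets were below the array median on all 6 arrays and give no usable level. Probe set 215787_at read 2.5 and 2.4 with PRMT5 shRNA 1, 2.4 and 4.2 with PRMT5 shRNA 2, and 4.7 and 4.2 with NTC shRNA. Probe set 243140_at read 0.9 to 2.5 with PRMT5 shRNA 1, 1 to 2.4 with PRMT5 shRNA 2 and 1 to 3 with NTC shRNA. ACTA2 thus rests on 1 probe set, unlike FAS.

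**Figure D1:**
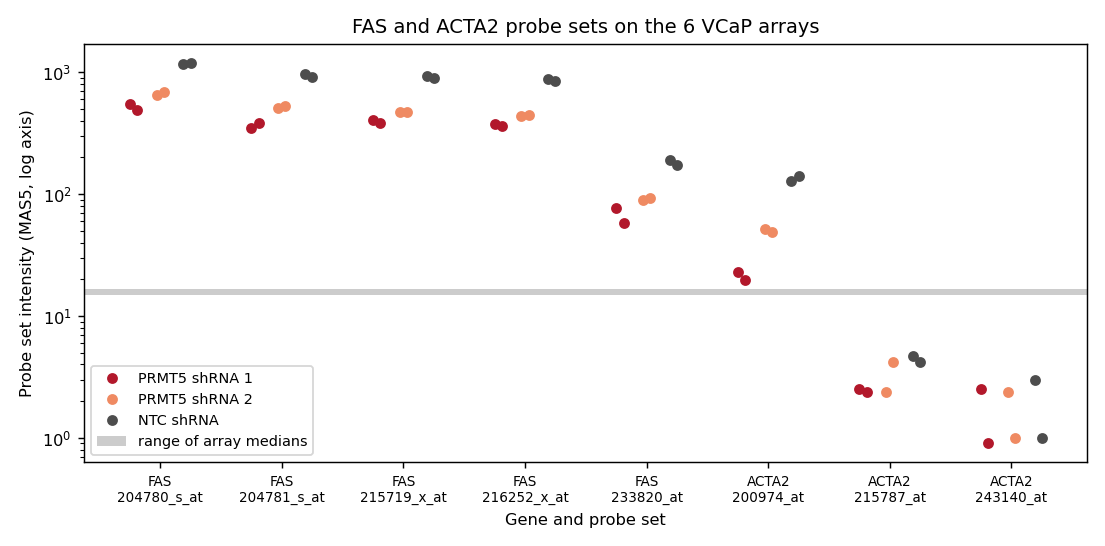
Intensity of each FAS and ACTA2 probe set (log axis) on each of the 6 arrays, 2 points a group, in the order PRMT5 shRNA 1, PRMT5 shRNA 2 and NTC shRNA. For 5 FAS probe sets and ACTA2 200974_at the groups are separate and in 1 order; 215787_at and 243140_at lie below the grey band, the range of the array medians (14.8 to 16.5).

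Among 12413 genes tested, ordered from the lowest log2 difference, ACTA2 stood at rank 23 with PRMT5 shRNA 1 and at 50 with PRMT5 shRNA 2, and FAS at 92 and 124. The median of all genes was -0.04 with PRMT5 shRNA 1 and 0.01 with PRMT5 shRNA 2. With pseudocounts of 16 and 1 the difference from control was larger in size for ACTA2 than for FAS with each hairpin. With a pseudocount of 64 they came close, at -1.22 (ACTA2) and -1.11 (FAS) with PRMT5 shRNA 1 and at -0.80 (ACTA2) and -0.76 (FAS) with PRMT5 shRNA 2. The comparisons of the hairpins with NTC shRNA share their control arrays.

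The contrast between the hairpins was not the one that chose the genes, and was tested. It uses the same knockdown arrays as that choice, so the p-values of FAS and ACTA2 are not free of it. FAS was higher with PRMT5 shRNA 2 than with PRMT5 shRNA 1 by 0.38 ± 0.07 in log2 units (SE; limma, adjusted p = 0.00416), and ACTA2 by 0.83 ± 0.10 (limma, adjusted p = 0.000756). In this comparison limma called 25.7% of all genes at an adjusted p under 0.05, with 18.3% higher and 7.38% lower with PRMT5 shRNA 2. Each FAS probe set passed the test, as did 25.8% of all kept probe sets, with differences of 0.24 to 0.49 and the highest adjusted p, 0.0361, for 233820_at. PRMT5 differed in the same direction, by 1.09 ± 0.08 (limma, adjusted p = 8e-05). The hairpin with less PRMT5 signal thus had less FAS and less ACTA2 signal, over 2 hairpins only.

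**Figure D2:**
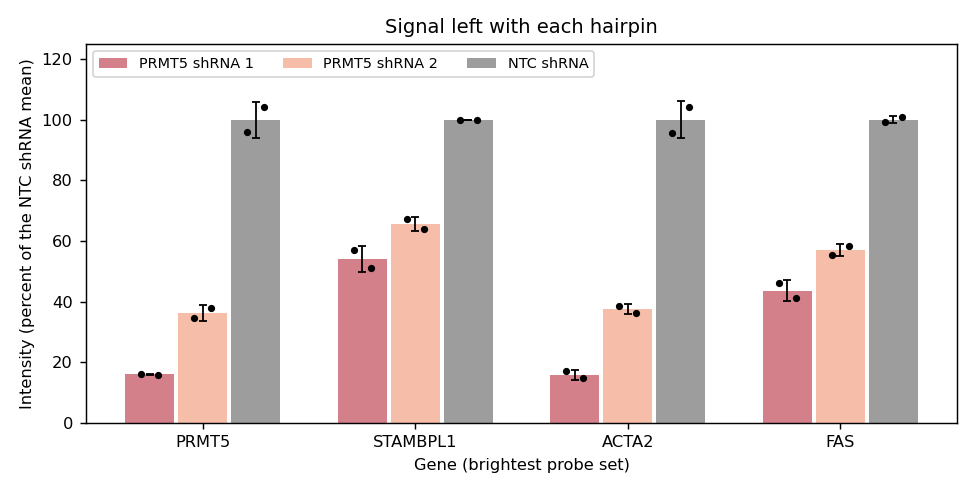
Intensity of PRMT5, STAMBPL1, ACTA2 and FAS (brightest probe set) as percent of the NTC shRNA mean; bars are means of 2 arrays, error bars SD, points single arrays. PRMT5 and ACTA2 were at 15.9% and 15.8% with PRMT5 shRNA 1 and at 36.2% and 37.5% with PRMT5 shRNA 2, while FAS was at 43.6% and 57%.

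The genes around the pair were then examined, to see whether the lower signal ran along the chromosome. Of 21 genes in a list of neighbours, 10 were tested. STAMBPL1, a deubiquitinase of the AMSH family, is the next annotated gene beyond ACTA2 on the array and lies on the plus strand. Its brightest probe set read 480 and 428 with PRMT5 shRNA 1 and 564 and 536 with PRMT5 shRNA 2, against 841 and 840 with NTC shRNA. The groups did not overlap and stood in the same order as for FAS and ACTA2, an order seen for 10.5% of all genes tested.

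The log2 intensity of STAMBPL1 fell by 0.87 ± 0.07 (SE) with PRMT5 shRNA 1 (limma, adjusted p = 6.26e-06) and by 0.60 ± 0.07 with PRMT5 shRNA 2 (limma, adjusted p = 0.000146). Its second kept probe set, 227606_s_at, gave -0.90 ± 0.09 and -0.72 ± 0.09, with 50.9% and 58.3% of the control signal left. Between the hairpins STAMBPL1 was higher with PRMT5 shRNA 2 by 0.27 ± 0.07 (limma, adjusted p = 0.0201). That last call was lost without PRMT5 shRNA 1 replicate 2 (limma, adjusted p = 0.162) and without PRMT5 shRNA 2 replicate 1 (0.0715), and 227606_s_at did not pass (0.18 ± 0.09; limma, adjusted p = 0.168).

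ACTA2-AS1, an antisense transcript of ACTA2, read 9.3 and 8.6 with PRMT5 shRNA 1 and 8.9 and 14 with PRMT5 shRNA 2, against 18.4 and 18.6 with NTC shRNA. Only the control arrays reached the array median, so the transcript entered the fit through the group where it was high, and its difference is given as values alone. FAS-AS1 stayed below the filter, at 6.5 to 7.2 with PRMT5 shRNA 1, 3.4 to 5.4 with PRMT5 shRNA 2 and 9.6 to 11.4 with NTC shRNA.

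No other neighbour measured in all 3 groups passed the test as lower with both hairpins. RNLS, which encodes the flavoprotein renalase, rose by 0.41 ± 0.08 (SE) in log2 units with PRMT5 shRNA 1 and by 0.40 ± 0.08 with PRMT5 shRNA 2 (limma, adjusted p = 0.0028 and 0.00556). The second kept RNLS probe set, 220564_at, was dimmer and did not pass (0.12 ± 0.11 and 0.27 ± 0.11; limma, adjusted p = 0.429 and 0.118). LIPA, the lysosomal acid lipase on the far side of FAS, rose by 0.20 ± 0.07 and 0.32 ± 0.07 (limma, adjusted p = 0.0425 and 0.00643). The first of these LIPA calls was lost without NTC shRNA replicate 1 (limma, adjusted p = 0.282) and without either PRMT5 shRNA 1 array (0.181 and 0.0968). The second was lost without NTC shRNA replicate 1 (0.0753).

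IFIT2, an interferon-induced gene, read 67.8 and 58.2 with PRMT5 shRNA 1 and 79.1 and 94.3 with PRMT5 shRNA 2, against 61.2 and 52 with NTC shRNA. It rose with PRMT5 shRNA 2 (0.50 ± 0.12 SE; limma, adjusted p = 0.0119), and did not pass with PRMT5 shRNA 1 (0.12 ± 0.12). The call with PRMT5 shRNA 2 was lost without NTC shRNA replicate 2 (limma, adjusted p = 0.0983) and without PRMT5 shRNA 2 replicate 2 (0.0735). The log2 differences of ANKRD22 (0.16 and 0.14), IFIT3 (-0.11 and 0.23), IFIT5 (-0.22 and -0.17), PANK1 (0.09 and -0.04) and KIF20B (-0.16 and -0.12) did not pass with PRMT5 shRNA 1 or with PRMT5 shRNA 2. With PRMT5 shRNA 1, KIF20B (limma, adjusted p = 0.0695) and IFIT5, another interferon-induced gene (0.0789), lay closest to the threshold. The second kept probe set of IFIT5, 203596_s_at, passed as lower with PRMT5 shRNA 1 (-0.31 ± 0.08 SE; limma, adjusted p = 0.00963) and not with PRMT5 shRNA 2 (-0.16 ± 0.08; 0.174). With the mean over kept probe sets IFIT5 passed with PRMT5 shRNA 1 (-0.27; limma, adjusted p = 0.00714). KIF20B passed there too (limma, adjusted p = 0.0437). Its only kept probe set is 205235_s_at, so its difference was unchanged at -0.16 and only the adjusted p moved. Without PRMT5 shRNA 2 replicate 2 the call of IFIT5 was gained with PRMT5 shRNA 1 (-0.22; limma, adjusted p = 0.0273) and with PRMT5 shRNA 2 (-0.31; 0.0341), and without PRMT5 shRNA 2 replicate 1 with PRMT5 shRNA 1 (0.0266).

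Of the 10 tested neighbours, 2 passed as higher and 2 as lower with PRMT5 shRNA 1, which is 40% called against 39.3% of all genes. With PRMT5 shRNA 2, 3 passed as higher and 1 as lower, 40% against 21.4% of all genes. ACTA2-AS1 is among those counted as lower with PRMT5 shRNA 1. Over the neighbours that reached the array median in both groups compared, 2 rose and 1, STAMBPL1, fell of 8 with PRMT5 shRNA 1 (37.5%), and 3 rose and 1 fell of 9 with PRMT5 shRNA 2 (44.4%). Of all genes, 16.2% rose and 23.1% fell with PRMT5 shRNA 1, and 13.1% rose and 8.39% fell with PRMT5 shRNA 2. The median log2 difference of all 10 was -0.01 with PRMT5 shRNA 1 and 0.05 with PRMT5 shRNA 2. Among all 10, 2 were called with PRMT5 shRNA 1 when its replicate 2 was left out, and 6 with the mean over probe sets.

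**Figure D3:**
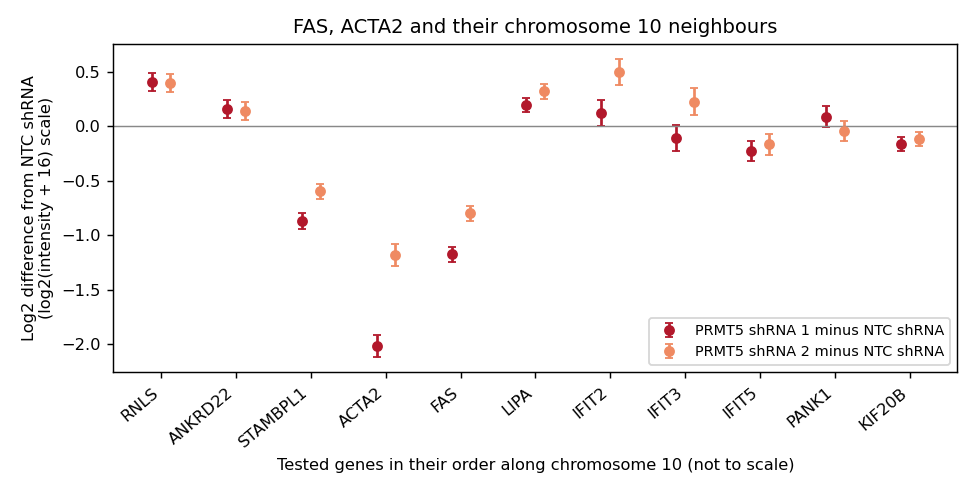
Log2 difference from NTC shRNA of FAS, ACTA2 and the tested protein-coding neighbours in their order along chromosome 10 (not to scale), for PRMT5 shRNA 1 and PRMT5 shRNA 2; points are fitted differences on the log2(intensity + 16) scale and bars their SE, 2 arrays a group. STAMBPL1, ACTA2 and FAS lie next to each other below -0.5 with both hairpins, and the other genes lie between -0.22 and 0.50.

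Of the partners of FAS in death receptor signalling, few passed the test with both hairpins. Fas ligand (FASLG) stayed below the filter, at 4.9 and 7.3 with PRMT5 shRNA 1, 6.2 and 5 with PRMT5 shRNA 2, and 8 and 5 with NTC shRNA. The adaptor FADD did not pass (-0.14 ± 0.11 and 0.06 ± 0.11, SE). CASP10, an initiator caspase, read 18.3 and 16.9 with PRMT5 shRNA 1 and 25.3 and 20.9 with PRMT5 shRNA 2, against 38 and 32.1 with NTC shRNA. It fell by 0.60 ± 0.12 with PRMT5 shRNA 1 (limma, adjusted p = 0.00244) and by 0.38 ± 0.12 with PRMT5 shRNA 2 (limma, adjusted p = 0.0386). The second call was lost with any 1 of the 6 arrays left out (limma, adjusted p = 0.0512 to 0.225).

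CASP8, the other initiator caspase, read 172 and 160 with PRMT5 shRNA 1 and 199 and 225 with PRMT5 shRNA 2, against 271 and 184 with NTC shRNA. Its call with PRMT5 shRNA 1 (-0.40 ± 0.14; limma, adjusted p = 0.0462) was lost without NTC shRNA replicate 1 (-0.14; limma, adjusted p = 0.437) and without either array of PRMT5 shRNA 1 (0.0915 and 0.184) or PRMT5 shRNA 2 (0.0513 and 0.0515). The gene did not pass with PRMT5 shRNA 2 (-0.07 ± 0.14). TNFRSF10B, a receptor for the death ligand TRAIL, fell by 0.27 ± 0.06 and 0.18 ± 0.06 (limma, adjusted p = 0.00348 and 0.041), but did not pass with the mean over its probe sets (-0.10 and -0.18). Its second call was lost without any 1 of 5 arrays (limma, adjusted p = 0.0602 to 0.21). CFLAR gave 0.26 ± 0.09 and 0.24 ± 0.09, with a call for PRMT5 shRNA 1 only (limma, adjusted p = 0.0411 and 0.0788), and the opposite sign with PRMT5 shRNA 1 without _x_at and _s_at probe sets (-0.35; limma, adjusted p = 0.0499). The CFLAR call was also lost without NTC shRNA replicate 2 (limma, adjusted p = 0.274) and without either PRMT5 shRNA 1 array (0.184 and 0.0887).

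Of 29 tested members of this list, 3 rose, 6 fell and 20 did not pass with PRMT5 shRNA 1, so 31% were called against 39.3% of all genes. With PRMT5 shRNA 2, 0 rose and 3 fell, 10.3% against 21.4%. With any 1 of the 6 arrays left out, the second count was 0 or 1. The median log2 difference was -0.01 with each hairpin. All members lay between -0.60 and 0.39, short of the differences of FAS.

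Of 4 other genes that mark smooth muscle, 3 were too dim to test. TAGLN, CNN1 and DES were below the filter. TAGLN read 14.9 and 15.8 with PRMT5 shRNA 1, 11.1 and 14.3 with PRMT5 shRNA 2, and 20.8 and 15 with NTC shRNA. CNN1 was at 0.4 to 1.1 on the 6 arrays. MYH11, the smooth muscle myosin heavy chain, read 17.7 and 18.7 with PRMT5 shRNA 1, 32.7 and 24.1 with PRMT5 shRNA 2, and 28.1 and 22.5 with NTC shRNA, and did not pass (-0.27 ± 0.13 and 0.10 ± 0.13, SE).

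SRF fell slightly with PRMT5 shRNA 1 (-0.21 ± 0.08 SE; limma, adjusted p = 0.0483) and did not pass with PRMT5 shRNA 2 (-0.12 ± 0.08); the first call was lost without either control array (limma, adjusted p = 0.181 and 0.142) and without either PRMT5 shRNA 1 array (0.162 and 0.137). Its partners MRTFA (0.05 ± 0.14 and -0.16 ± 0.14) and MRTFB (-0.11 ± 0.08 and -0.04 ± 0.08) did not pass. CNN2, a calponin of non-muscle cells, rose by 0.62 ± 0.06 and 0.36 ± 0.06, and TPM4, a tropomyosin, by 0.49 ± 0.07 and 0.42 ± 0.07, while CSRP1, a LIM domain protein, fell by 0.29 ± 0.07 and 0.27 ± 0.07 (limma, highest adjusted p of the 3 genes = 0.016). Both CSRP1 calls were lost without NTC shRNA replicate 2 (limma, adjusted p = 0.0608 and 0.122), and the second without PRMT5 shRNA 2 replicate 2 (0.0692).

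Of 22 tested contractile and SRF genes, 3 rose and 4 fell with PRMT5 shRNA 1 (31.8% called, against 39.3% of all genes), and 5 rose and 1 fell with PRMT5 shRNA 2 (27.3%, against 21.4%). Their median log2 difference was -0.09 and 0.08, and the lowest -0.38 and -0.27. Without NTC shRNA replicate 2 the counts called were 3 and 3, and without PRMT5 shRNA 2 replicate 2 the second was 3.

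Other actin genes were examined as the closest relatives of ACTA2. ACTB, the cytoplasmic beta actin, read 4556 and 5015 with PRMT5 shRNA 1 and 4409 and 4148 with PRMT5 shRNA 2, against 4420 and 4444.5 with NTC shRNA, and did not pass (0.11 ± 0.06 and -0.05 ± 0.06, SE). The muscle actins ACTA1, ACTC1 and ACTG2 stayed at 0.7 to 7.5 on all arrays, below the filter. GSN, gelsolin, which severs actin filaments, read 37.7 and 35 with PRMT5 shRNA 1 and 36.4 and 31.6 with PRMT5 shRNA 2, against 15.6 and 12.6 with NTC shRNA. The GSN control values did not reach the array median, so the gene entered the fit through the knockdown arrays. The size of its log2 difference is set by the pseudocount, at 1.31 and 1.22 with 1 and 0.36 and 0.33 with 64.

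RHOB, a small GTPase of actin signalling, rose by 0.45 ± 0.07 and 0.35 ± 0.07 (SE), and TMSB10, a thymosin that binds actin monomers, by 0.48 ± 0.07 and 0.31 ± 0.07 (limma, highest adjusted p of the pair = 0.00955). With PRMT5 shRNA 2 the RHOB call was lost without NTC shRNA replicate 2 (limma, adjusted p = 0.0509), and that of TMSB10 without NTC shRNA replicate 1 (0.0879) or PRMT5 shRNA 2 replicate 1 (0.0585). Of 21 tested genes of actin and its dynamics, 7 passed as higher and 2 as lower with PRMT5 shRNA 1 (42.9% called, against 39.3% of all genes), and 3 as higher and 1 as lower with PRMT5 shRNA 2 (19%, against 21.4%). Without GSN, 6 rose and 2 fell of 20 (40%), and 2 rose and 1 fell of 20 (15%). Without NTC shRNA replicate 2 the counts called were 4 and 2, and without NTC shRNA replicate 1 the second was 2.

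Because ACTA2 marks stromal cells in tissue, markers of other cell types were summed on each array. In bulk RNA, fewer cells of a type and less RNA per cell cannot be told apart. Of 20 stromal, endothelial and immune markers on the array 5 passed the filter and 0 were at 0 on all arrays. Their summed intensity was 1331 to 1426 with PRMT5 shRNA 1 and 1099 to 1163 with PRMT5 shRNA 2, against 814 to 855 with NTC shRNA. LUM and LYZ carried that difference. Without both, the sum over 18 markers was 265 to 277 with PRMT5 shRNA 1 and 354.5 to 359 with PRMT5 shRNA 2, against 355 to 361 with NTC shRNA, lower with PRMT5 shRNA 1 and overlapping the control range with PRMT5 shRNA 2. RGS5 (mean 50.65 with PRMT5 shRNA 1 against 106.8 with NTC shRNA) and FBLN1 (114 against 138) carried most of that lower sum. Most of the other markers in it did not pass the filter. The part of such cells in the ACTA2 values was not tested.

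Among the stromal markers, COL1A2, COL3A1, DCN, VIM, PDGFRB and THY1 stayed at 0.8 to 8.1 on all 6 arrays, and FAP at 3.5 to 11.6. PDGFRA read 9.1 and 17 with PRMT5 shRNA 1 and 8.5 and 15.5 with PRMT5 shRNA 2, against 4.1 and 3.7 with NTC shRNA, below the filter. COL1A1, a collagen chain, read 30.5 and 24.6 with PRMT5 shRNA 1 and 40.7 and 54 with PRMT5 shRNA 2, against 29.7 and 35.8 with NTC shRNA, and did not pass against the control with PRMT5 shRNA 1 (-0.16 ± 0.13, SE) or with PRMT5 shRNA 2 (0.37 ± 0.13). FBLN1, a matrix fibulin, read 111 and 118 with PRMT5 shRNA 1 and 181 and 140.3 with PRMT5 shRNA 2, against 142.5 and 134 with NTC shRNA, and did not pass either (-0.24 ± 0.11 and 0.19 ± 0.11). These markers do not move in 1 direction.

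LUM, lumican, rose by 1.10 ± 0.08 and 0.63 ± 0.08 (SE) and LYZ, lysozyme, by 1.70 ± 0.11 and 0.97 ± 0.11 (limma, highest adjusted p of the pair = 0.000162). RGS5, a regulator of G protein signalling that marks pericytes, read 46.5 and 54.8 with PRMT5 shRNA 1 and 69.4 and 83.9 with PRMT5 shRNA 2, against 102 and 111.5 with NTC shRNA. It fell by 0.88 ± 0.11 with PRMT5 shRNA 1 (limma, adjusted p = 0.000182) and by 0.41 ± 0.11 with PRMT5 shRNA 2 (limma, adjusted p = 0.0269), and the second call was lost without either control array or PRMT5 shRNA 2 replicate 1. With each hairpin 2 of the 5 tested markers rose and 1 fell, 60% called, against 39.3% of all genes with PRMT5 shRNA 1 and 21.4% with PRMT5 shRNA 2.

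Smooth muscle markers, namely TAGLN, CNN1, MYH11 and DES, summed to 40.4 to 41.1 with PRMT5 shRNA 1 and 46.8 to 47.7 with PRMT5 shRNA 2, against 43.3 to 58.1 with NTC shRNA, and 1 of the 4 passed the filter. All 10 VCaP markers examined passed it, KLK3, ERG and the keratins KRT8 and KRT18 among them. Their summed intensity was 16219 to 16970 with PRMT5 shRNA 1 and 16185 to 17276 with PRMT5 shRNA 2, against 14348.5 to 14654 with NTC shRNA. Without KLK3, prostate-specific antigen, the sum was 13631 to 14304 with PRMT5 shRNA 1 and 13720 to 14602 with PRMT5 shRNA 2, against 13162 to 13485 with NTC shRNA. With PRMT5 shRNA 1, 5 of the 10 rose and 3 fell. Those that rose were KLK3 (1.15 ± 0.06, SE), SLC45A3 (0.74 ± 0.06), KRT8 (0.51 ± 0.08), KRT18 (0.33 ± 0.08) and KLK2 (0.18 ± 0.05). Those that fell were HOXB13 (-0.47 ± 0.08), ERG (-0.40 ± 0.07) and TMPRSS2 (-0.28 ± 0.08). The highest adjusted p was 0.0221 among the 5 and 0.0235 among the 3 (limma). With PRMT5 shRNA 2, 3 rose, namely KLK3 (1.11 ± 0.06), KRT8 (0.66 ± 0.08) and SLC45A3 (0.53 ± 0.06), and 0 fell. Thus 80% were called with PRMT5 shRNA 1, against 39.3% of all genes, and 30% with PRMT5 shRNA 2, against 21.4%.

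**Figure D4:**
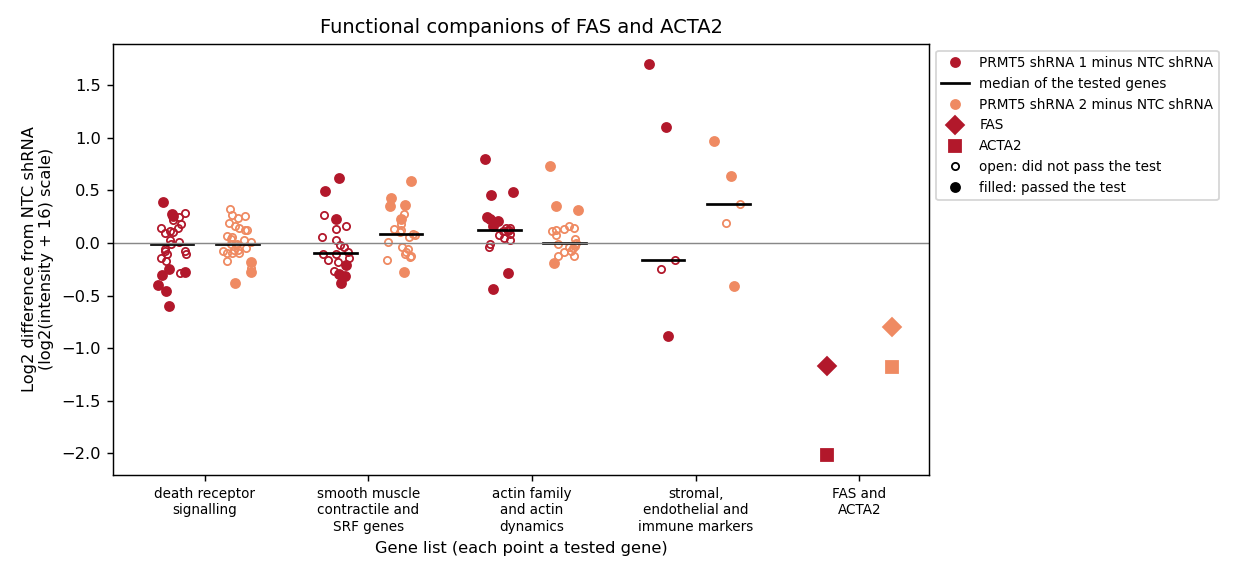
Log2 difference from NTC shRNA, on the log2(intensity + 16) scale, of every tested gene in 4 functional lists and of FAS and ACTA2, with PRMT5 shRNA 1 left of PRMT5 shRNA 2; filled points passed limma's adjusted p of 0.05, open points did not, and black bars are medians. The medians lie between -0.16 and 0.37, and FAS and ACTA2, which carry no test, lie at -0.80 and below.

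Genes with the most similar profile were found from the 6 arrays, each gene set as log2 differences from its own control mean, by the root mean square distance. The closest to FAS were ANKMY2 (distance 0.0531), the lysosomal channel MCOLN2 (0.0616), the noncoding RNA LINC00294 (0.0617), SLC10A4 (0.0647) and CACHD1 (0.0662), and none of the 5 lies on chromosome 10. The control mean of CACHD1 was only 35.1, against array medians of 14.8 to 16.5, so its distance depends on the pseudocount. With a pseudocount of 1, CACHD1 differed between the hairpins by 0.797 and FAS by 0.385. The closest to ACTA2 were the kinase DCLK1 (0.0793), the secreted protein LGI1 (0.12), the noncoding RNA TUNAR (0.132), the glucuronosyltransferase UGT2B28 (0.171) and PLCL2 (0.179). DCLK1 read 42.3 and 37.2 with PRMT5 shRNA 1 and 76.4 and 79.1 with PRMT5 shRNA 2, against 214 and 211 with NTC shRNA. LGI1, also on chromosome 10, was not among the listed neighbours.

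FAS and ACTA2 were 0.536 apart by this measure, which placed ACTA2 at 865 of 12412 genes in order of likeness to FAS, and FAS at 71 of 12412 in order of likeness to ACTA2. The pair therefore shared the direction and the order of the groups, and differed in size on this scale. All 6 arrays enter each distance, and the measure carries no test.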

How the data were processed

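RNA of VCaP cells was hybridised to 6 arrays. The authors deposited 1 linear intensity a probe set. The submitters' processing notes name MAS5, with its version not given in the sources used here. Each deposited column had a mean of 150 after trimming 2% at each end, so no further scaling was applied. Value columns that matched no sample numbered 0. The number of arrays limits the precision.

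Gene symbols came from the platform annotation, and 62 control probe sets were left out. A probe set was kept if it reached its array's median on at least 2 arrays. Each gene was represented by its brightest kept probe set with exactly 1 symbol, which left 12413 genes. Values were fitted as log2(intensity + 16) with limma 3.58.1 in R 4.3.3 (a coefficient per group over all 6 arrays, empirical Bayes with an intensity trend, 3 residual degrees of freedom), two-sided, with Benjamini-Hochberg adjustment over all genes and a threshold of 0.05. A second fit over 28644 kept probe sets gave values of single probe sets. The script was tested on simulated data. Sequences are RefSeq's.

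Genes named were FAS, ACTA2, PRMT5, all tested neighbours, fixed core genes of each list, up to 6 list members called one way with both hairpins, and the 5 nearest profiles. COL1A1, FBLN1, PDGFRA and other dim stromal markers, HOXB13, ERG, TMPRSS2, KRT18 and KLK2, and marker sums without LUM, LYZ or KLK3, were chosen after their values were seen. The members and lists were chosen with earlier results of these data known. Alternatives were the pseudocount, normalization, filter, probe set choice, trend, replicate block and leaving out each array.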

Additional observations from a re-analysis of the deposited data

Results flagged for a closer look

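These results differed between PRMT5 shRNA 2 and PRMT5 shRNA 1 in limma's contrast between the hairpins, given as log2 differences of PRMT5 shRNA 2 minus PRMT5 shRNA 1 with their adjusted p. Each group held 2 arrays, and 25.7% of all genes passed in this contrast. PRMT5 gave 1.09 (adjusted p = 8e-05), ACTA2 0.834 (0.000756), FAS 0.376 (0.00416) and STAMBPL1 0.27 (0.0201). IFIT2, another neighbour, gave 0.377 (0.039). FAS and ACTA2 were chosen with these same knockdown arrays, so their p-values are not free of that choice.

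Among the genes nearest in profile, those near FAS gave 0.339 for ANKMY2 (limma, adjusted p = 0.00898), 0.325 for MCOLN2 (0.0332), 0.388 for LINC00294 (0.00226) and 0.481 for SLC10A4 (0.00891). Those near ACTA2 gave 0.751 for DCLK1 (0.00087), 0.852 for LGI1 (0.000228), 0.659 for TUNAR (0.00131), 0.676 for UGT2B28 (0.00375) and 0.421 for PLCL2 (0.0148). These genes were chosen for profiles like those of FAS and ACTA2, so their differences are no separate support.

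Of the other list members called one way with both hairpins, CNN2 gave -0.254 (limma, adjusted p = 0.0153), LYZ -0.732 (0.00169), LUM -0.47 (0.00252), RGS5 0.474 (0.0139) and SLC45A3, a VCaP marker, -0.203 (0.0236). CNN2, LYZ, LUM and SLC45A3 were lower with PRMT5 shRNA 2 and the other genes named so far higher. More list members passed, among them COL1A1 0.536 (limma, adjusted p = 0.0158), FBLN1 0.433 (0.0194), ERG 0.381 (0.00345) and HOXB13 0.372 (0.00677). All 5 tested stromal, endothelial and immune markers were called, 3 as higher and 2 as lower. Of 10 VCaP markers, 2 were called as higher and 1 as lower. COL1A1, FBLN1, ERG and HOXB13 were not followed with arrays left out. With 1 of the 6 arrays left out at a time, the calls of STAMBPL1, IFIT2, ANKMY2, MCOLN2, SLC10A4, PLCL2, CNN2, RGS5 and SLC45A3 were each lost at least once. Those of PRMT5, FAS, ACTA2, LINC00294, DCLK1, LGI1, TUNAR, UGT2B28, LYZ and LUM were kept each time.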

How the results depend on the processing

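Under all 14 alternatives FAS and ACTA2 stayed below NTC shRNA with each hairpin, and both stayed higher with PRMT5 shRNA 2 than with PRMT5 shRNA 1 (limma, adjusted p from 0.00412 to 0.0431 for FAS and from 6e-04 to 0.0101 for ACTA2). With a pseudocount of 1 ACTA2 gave -2.61 with PRMT5 shRNA 1 and -1.40 with PRMT5 shRNA 2, and with 64 it gave -1.22 and -0.796, since its knockdown values lie near the added number. FAS gave -0.882 with PRMT5 shRNA 2 with the mean over probe sets, and -1.26 and -0.882 without _x_at and _s_at probe sets, which leaves 233820_at alone. Leaving out 1 array gave FAS -1.25 to -1.09 with PRMT5 shRNA 1 and -0.834 to -0.761 with PRMT5 shRNA 2, and ACTA2 -2.07 to -1.96 and -1.24 to -1.13. Leaving out _x_at and _s_at probe sets also left fewer genes tested. The counts called with PRMT5 shRNA 1 were then 4 of 20 death receptor genes, 4 of 16 contractile genes and 5 of 11 actin genes, against 3909 of all 9792 genes. With PRMT5 shRNA 2, 1 of 11 actin genes was called, against 2155 of 9792. With no filter on dim probe sets 0 of 37 death receptor genes were called with PRMT5 shRNA 2, against 2200 of all 19775 genes. With 1 array left out, the counts with PRMT5 shRNA 1 were 2 to 5 for neighbours, 6 to 9 for death receptor genes, 3 to 8 for contractile genes and 4 to 10 for actin genes. With PRMT5 shRNA 2 they were 0 to 1 for death receptor genes, 3 to 5 for contractile genes and 2 to 4 for actin genes. All genes called were 3180 to 5283 with PRMT5 shRNA 1, 1561 to 2443 with PRMT5 shRNA 2 and 1333 to 2808 between the hairpins, against 4879, 2661 and 3192 with all arrays. CFLAR turned its direction without _x_at and _s_at probe sets (-0.347 with PRMT5 shRNA 1); the cause was not tested. Over the single genes named and all settings, a call was kept 975 times, lost 92 times and gained 23 times, and genes without a call stayed without one 673 times. Counting only list members at the array median in both groups compared, chosen after seeing the data, gave 3 and 4 neighbours and 8 and 3 actin genes, and the other lists kept their counts.

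Replicate numbers are shared between the groups, and deviations of same-numbered arrays correlated at -0.0902, -0.176 and -0.00448. No positive correlation was seen, but with 2 arrays a group this cannot exclude that same-numbered arrays were handled together. With the replicate block the difference between the hairpins was 0.376 for FAS (limma, adjusted p = 0.00491) and 0.834 for ACTA2 (6e-04), and the calls over all genes were 4559, 2435 and 2829. The other values with the block were -1.17 and -0.798 for FAS and -2.02 and -1.18 for ACTA2.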
